A study of Arabidopsis thaliana with 6 samples.

Results

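The clade A protein phosphatases 2C (PP2Cs) of Arabidopsis thaliana are the enzymes that hold abscisic acid (ABA) signalling off. They were taken from the deposited gene table by locus identifier as ABI1, ABI2, HAB1, HAB2, PP2CA, AHG1, HAI1, HAI2 and HAI3, which makes 9 of its 33189 rows. The libraries were made from total RNA of 7-day seedlings, 3 from wild-type plants of the Col ecotype and 3 from tsk-4, a mutant in the same ecotype, and nothing else distinguishes the groups in the labels. The mutant carries an allele of TONSOKU (TSK), a nuclear protein that acts on replicating chromatin. The labels give no lesion, no second allele, no complemented line and no source culture of a replicate, so p-values measure the spread between these libraries, which may be technical.

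In the absence of ABA these phosphatases dephosphorylate and inactivate some kinases of the SnRK2 family. ABA bound to a receptor of the PYR/PYL family captures a PP2C at its active site and so frees these kinases. The released kinases phosphorylate bZIP factors of the ABF and ABI5 group, which switch on stress genes through a promoter element called the ABRE, and they open the anion channel of guard cells. Several clade A PP2C genes are themselves induced by ABA, a feedback that lowers sensitivity to the hormone. ABI1, ABI2, HAB1, HAB2 and PP2CA act through the whole plant, AHG1 acts mainly in seeds, and the HAI genes were named for their strong induction by ABA.

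The genes lie at 9 separate loci on chromosomes 1 to 5 of TAIR10.1. ABI1 (AT4G26080) occupies chromosome 4 from 13219915 to 13222376, ABI2 (AT5G57050) chromosome 5 from 23087122 to 23089631, HAB1 (AT1G72770) chromosome 1 from 27389948 to 27393327 and HAB2 (AT1G17550) chromosome 1 from 6034270 to 6037398. PP2CA (AT3G11410) occupies chromosome 3 from 3583782 to 3585850, AHG1 (AT5G51760) chromosome 5 from 21026805 to 21029188, HAI1 (AT5G59220) chromosome 5 from 23894404 to 23896939, HAI2 (AT1G07430) chromosome 1 from 2280746 to 2282828 and HAI3 (AT2G29380) chromosome 2 from 12608675 to 12610350. All 9 are protein-coding, and their longest annotated transcripts have 3 or 4 exons. The longest exact run shared by the transcripts of any pair was 33 bases, between HAB1 and HAB2, followed by 26 bases between ABI1 and ABI2. ABI1 alone overlaps another annotated gene: the last 22 bases of its 3′ end are also the last 22 bases of MEK1 (AT4G26070), a MAP kinase kinase gene on the opposite strand.

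The 250 bases before the annotated start are shown for ABI1, HAI1 and HAI2, the 3 genes with log2 rises above 1, and for PP2CA and AHG1, because the ABRE is the element through which many ABA-induced genes answer the hormone. Capitals mark the ABRE core ACGTG on either strand, each window reads 5′ to 3′ along the gene, and none overlaps an annotated gene. The windows are chr4:13222377-13222626 (minus strand) for ABI1, chr5:23896940-23897189 (minus strand) for HAI1, chr1:2282829-2283078 (minus strand) for HAI2, chr3:3585851-3586100 (minus strand) for PP2CA and chr5:21026555-21026804 (plus strand) for AHG1, in the TAIR10.1 sequence of RefSeq.
ABI1: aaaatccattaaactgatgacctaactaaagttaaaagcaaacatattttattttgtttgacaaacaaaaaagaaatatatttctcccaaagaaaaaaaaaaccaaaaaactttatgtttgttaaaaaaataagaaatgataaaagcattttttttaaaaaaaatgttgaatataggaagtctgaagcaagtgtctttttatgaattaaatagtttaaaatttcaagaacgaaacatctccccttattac
HAI1: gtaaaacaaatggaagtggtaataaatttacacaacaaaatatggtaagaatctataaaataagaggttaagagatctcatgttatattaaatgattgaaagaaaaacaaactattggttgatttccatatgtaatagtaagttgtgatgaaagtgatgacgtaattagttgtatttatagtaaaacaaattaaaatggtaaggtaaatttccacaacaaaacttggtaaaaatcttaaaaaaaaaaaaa
HAI2: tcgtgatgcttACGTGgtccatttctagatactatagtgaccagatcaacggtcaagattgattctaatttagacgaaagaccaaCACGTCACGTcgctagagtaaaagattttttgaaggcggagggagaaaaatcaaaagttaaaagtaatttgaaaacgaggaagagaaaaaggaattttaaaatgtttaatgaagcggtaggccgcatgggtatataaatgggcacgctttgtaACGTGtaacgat
PP2CA: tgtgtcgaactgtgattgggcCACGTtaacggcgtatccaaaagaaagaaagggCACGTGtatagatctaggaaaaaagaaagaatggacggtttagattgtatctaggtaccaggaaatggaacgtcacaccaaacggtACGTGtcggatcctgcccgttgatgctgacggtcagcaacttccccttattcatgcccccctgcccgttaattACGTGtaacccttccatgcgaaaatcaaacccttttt
AHG1: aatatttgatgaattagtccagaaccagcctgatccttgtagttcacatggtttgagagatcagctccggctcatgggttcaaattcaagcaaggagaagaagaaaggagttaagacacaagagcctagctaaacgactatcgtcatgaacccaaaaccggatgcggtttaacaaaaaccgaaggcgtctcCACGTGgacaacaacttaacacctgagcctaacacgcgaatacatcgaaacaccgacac

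The core was found 5 times before PP2CA and 4 times before HAI2, and 0 times before ABI1, ABI2 and HAI1. It was found 2 times each before HAB2, HAI3 and AHG1 and 1 time before HAB1. In PP2CA and AHG1 a pair of these matches are the 2 strands of 1 palindrome, the G-box CACGTG. At least 1 core stood in 22.9% of the 27443 windows of this length before protein-coding genes, at least 2 in 8.84% and at least 4 in 1.34%. The motif CCGAC, the core of the drought-responsive element, was found before PP2CA and AHG1 and in 12% of all windows. The motif bound by the DNA damage regulator SOG1, a spaced palindrome, was found before HAB2 and in 9.71% of all windows. These are matches of letters within the windows only. Of the 3 genes with log2 rises above 1, HAI2 held 4 cores and ABI1 and HAI1 held 0.

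**Figure D1:**
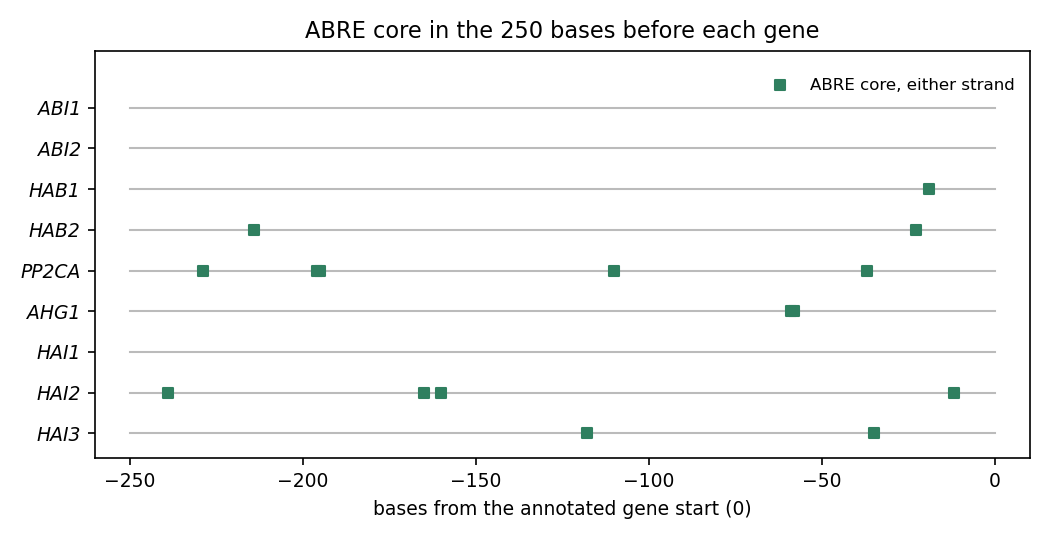
Matches of the ABRE core, on either strand, in the 250 bases before each of the 9 genes; the horizontal axis is the distance in bases from the annotated gene start, and each square is the first base of 1 match. PP2CA and HAI2 hold 5 and 4 matches, and ABI1, ABI2 and HAI1 hold 0.

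The libraries held 13726929 to 14946295 reads each in the gene table. TSK itself (AT3G18730) was lower in the mutant, 0.903 ± 0.0657 against 3.62 ± 0.234 TPM (SD, n = 3 each; limma adjusted p = 0.00097), which checks the labels. TPM is a read count divided by gene length and scaled to the same total in every library. All 8 leaf markers (chlorophyll-binding, Rubisco and Rubisco activase genes) fell on TPM as deposited, 5 of them under quantile normalization, and their sum was 77010 to 78850 TPM in the mutant libraries against 103600 to 105100 TPM in the wild type. Of 10 guard cell and stomatal lineage markers 2 fell and 0 rose, with sums of 206.6 to 247.5 and 159.5 to 185.4 TPM. Under median-ratio scaling and under quantile normalization 4 of them fell, and on recovered reads 6. Of 10 root markers 3 rose and 0 fell (3 and 2 under median-ratio scaling), with sums of 253.9 to 264.8 and 263.9 to 305.9 TPM. Of 10 seed markers 6 could be tested and limma called 0 at adjusted and 0 at unadjusted p under 0.05, and limma-voom on reads called 0. Over all genes tested, 14.9% were called higher and 4.96% lower on TPM as deposited. These shares were 9.21% and 8.21% under median-ratio scaling, 8.71% and 8.48% under quantile normalization, and 9.67% and 9.03% on recovered reads. The part of these marker shifts in the results below was not tested. In bulk RNA, fewer cells of a type and less RNA per cell cannot be told apart.

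In Col the levels formed a graded series. ABI1, the phosphatase of the first ABA-insensitive mutant, was highest at 56.1, 53.8 and 54.8 TPM in Col 1, 2 and 3. PP2CA, also called AHG3, followed at 46.1, 48.1 and 50.4 TPM, and HAB1, the closest relative of HAB2, at 49.96, 45.3 and 42.4 TPM. Libraries of PP2CA and HAB1 overlapped, so their order is not resolved, and it turned round when reads were divided by exon length. HAB2 measured 35.9, 34.5 and 31.4 TPM and ABI2, the closest relative of ABI1, 14.1, 11.1 and 10.95 TPM, each below all libraries of the gene before it. HAI1 stood at 2.98, 3.89 and 4.72 TPM. HAI3, AHG1 and HAI2 had means of 1.14, 0.787 and 0.721 TPM and overlapped in the order given, HAI3 ranging from 0.55 to 2.06 TPM. The deposited TPM divide by the full span of a gene with its introns. Divided by exon length instead, ABI1 had a mean of 47.1 TPM and HAI2 of 0.595 TPM in Col, and AHG1 no longer overlapped HAI2.

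**Figure D2:**
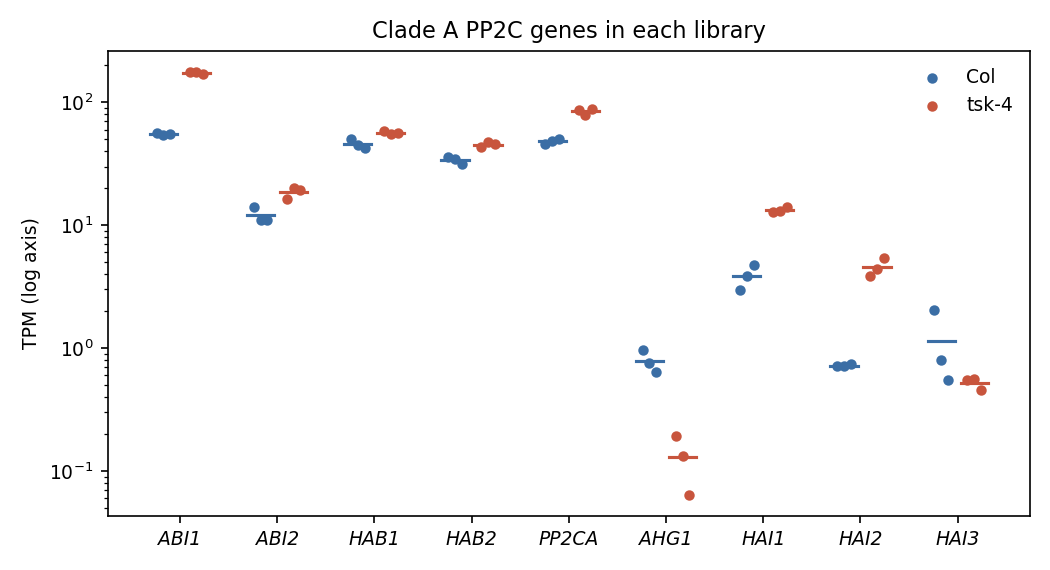
TPM of the 9 genes in each library on a log axis, Col in blue and tsk-4 in red; each point is 1 library and each bar the mean of 3. For 7 genes all tsk-4 points lie above all Col points, for AHG1 they lie below, and for HAI3 the genotypes overlap.

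Of the 9 clade A genes 7 passed the filter of at least 1 TPM in 3 libraries and were called higher in tsk-4, and AHG1 and HAI3 did not pass. The filter bears on this count: HAI2 passed through its tsk-4 libraries alone, and AHG1, kept out by it, was called lower with no filter and on recovered reads. Over all 19574 genes tested, 14.9% were called higher and 4.96% lower by the same rule, and with median-ratio scaling 9.21% and 8.21% (limma on log2(TPM + 0.5), Benjamini-Hochberg adjusted p under 0.05). The log2 changes of the 7 ran from 0.31 to 2.04 with a median of 0.81, and the median over all genes tested was 0.08. The median of 0.81 describes the genes that passed and not the whole clade. All 7 tested genes had tsk-4 libraries all above Col, where 26.7% of all genes tested were separated in this direction and 10.9% in the other. AHG1, outside the genes tested, had all tsk-4 libraries below Col. With median-ratio scaling, quantile normalization or recovered reads 6 of the 7 were called higher, HAB1 being lost, where 9.21%, 8.71% and 9.67% of all genes were called higher and 8.21%, 8.48% and 9.03% lower.

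ABI1 had the smallest p-value of the clade. It reached 176, 177 and 169 TPM in tsk-4 1, 2 and 3, from 54.9 ± 1.14 to 174 ± 4.12 TPM (SD, n = 3 each). The lowest tsk-4 library stood far above the highest Col library, at 56.1 TPM. Its log2 change was 1.66 ± 0.05 (SE; 95% interval 1.53 to 1.78; limma adjusted p = 2.5e-06). The p-value of ABI1 ranked 1 among the 19574 genes tested, and between 1 and 4 in the other fits run, while 103 genes had a larger rise. The change rested on 2606 wild-type and 8333 mutant reads.

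MEK1, whose 3′ end ABI1 overlaps, also rose, from 3.94 ± 0.783 to 12.7 ± 1.60 TPM (limma log2 change 1.58 ± 0.16, adjusted p = 0.00027). Its reads numbered 187 over the wild-type libraries and 607 over the mutant ones. Whether the counting used strand is not given in the sources used here. Reads of the 2 genes in the shared 22 bases, or running past them into the other gene, therefore cannot be told apart. The part of ABI1 reads in the MEK1 rise was not tested.

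ABI2 rose less than its close relative. It measured 16.4, 20.2 and 19.4 TPM in tsk-4, against 12.1 ± 1.78 TPM in Col. The lowest tsk-4 library was above the highest Col library, at 14.1 TPM. The log2 change was 0.61 ± 0.13 (limma adjusted p = 0.010). The ratio of ABI1 to ABI2 was 4.60 ± 0.554 in Col and 9.39 ± 1.14 in tsk-4, with no overlap between genotypes. An exact two-sided permutation test of the log2 ratio gave p = 0.1, the smallest that 3 libraries against 3 allow (0.15 adjusted over 3 pairs).

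HAB1 and HAB2 had the smallest rises among the tested genes. HAB1, which also binds a subunit of a chromatin remodelling complex, measured 58.6, 55.7 and 55.8 TPM in tsk-4 against 45.9 ± 3.83 TPM in Col, and its log2 difference was 0.31 ± 0.08 (adjusted p = 0.022 by limma). Its call was lost with median-ratio scaling (adjusted p = 0.085), quantile normalization (0.11) and recovered reads (limma-voom adjusted p = 0.054), and also without Col 2, tsk-4 1 or tsk-4 3 (0.077, 0.079 and 0.063). HAB2 measured 43.0, 47.2 and 45.7 TPM against 33.9 ± 2.32 TPM, and its log2 difference was 0.41 ± 0.08 (adjusted p = 0.0066 by limma). The ratio of HAB1 to HAB2 was 1.35 ± 0.0401 in Col and 1.25 ± 0.0968 in tsk-4 and overlapped (exact permutation p = 0.3).

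PP2CA, which besides SnRK2 kinases binds the potassium channel AKT2, rose to 87.0, 78.7 and 88.3 TPM from 48.2 ± 2.15 TPM in Col. The lowest tsk-4 library was above the highest Col library, at 50.4 TPM. Its log2 change was 0.81 ± 0.07 (95% interval 0.65 to 0.96; limma adjusted p = 0.00011).

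HAI1 and HAI2 rose from low levels in Col. HAI1 measured 12.9, 13.0 and 14.2 TPM in tsk-4 against 3.86 ± 0.873 TPM, and its log2 difference was 1.69 ± 0.16 (adjusted p = 0.00017 by limma). It rested on 190 wild-type and 659 mutant reads. HAI2 measured 3.88, 4.44 and 5.38 TPM in tsk-4 against 0.709, 0.717 and 0.737 TPM in Col. The log2(TPM + 0.5) change of HAI2 was 2.04 ± 0.21 (limma adjusted p = 0.00027), and on recovered reads, where no pseudocount of that size is added, it was 2.5 ± 0.36 (limma-voom adjusted p = 0.00017). The rise of HAI2 rested on 29 wild-type and 185 mutant reads. The order of HAI1 and ABI1 by log2 change is not resolved: HAI1 was lower than ABI1 with a pseudocount of 1 (1.58 against 1.65), without Col 1 (1.53 against 1.67) and without tsk-4 3 (1.65 against 1.68). The ratio of HAI1 to HAI2 was 5.34 ± 1.11 in Col and 2.96 ± 0.342 in tsk-4 without overlap (exact permutation p = 0.1, the smallest possible, and 0.15 adjusted over 3 pairs).

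**Figure D3:**
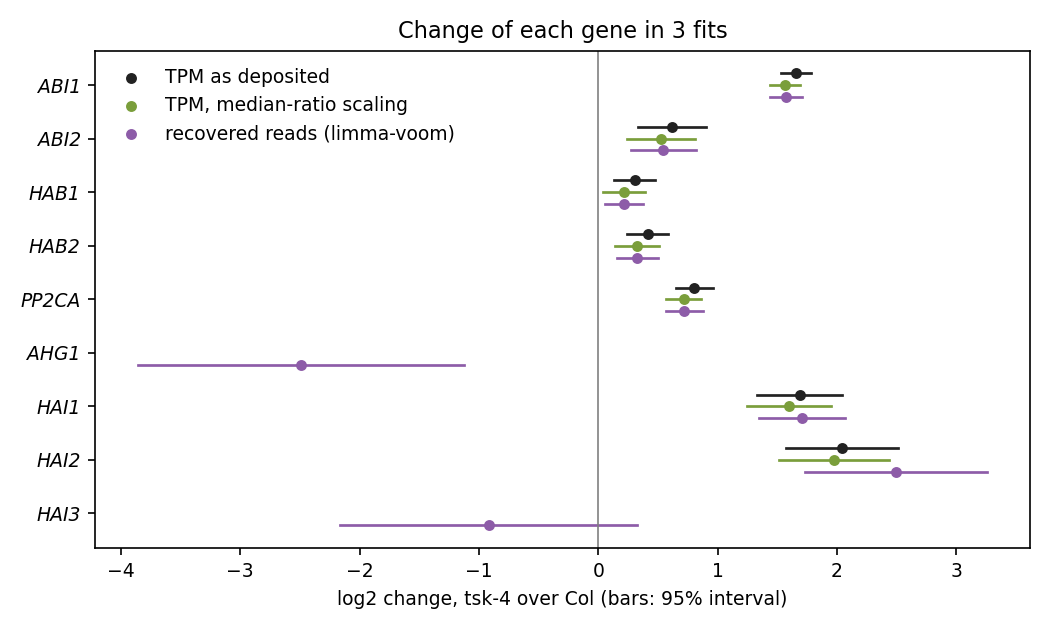
Log2 change of each gene, tsk-4 over Col, in 3 fits; points are estimates, bars 95% intervals, and AHG1 and HAI3 appear only in the fit of recovered reads because they did not pass the filter on TPM. ABI1, HAI1 and HAI2 lie between 1.57 and 2.5, and AHG1 lies at -2.49.

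AHG1, the seed phosphatase that binds the dormancy protein DOG1, went the other way. Its reads numbered 14, 12 and 10 in the Col libraries and 3, 2 and 1 in the mutant, or 0.964, 0.752 and 0.644 against 0.192, 0.131 and 0.0644 TPM. All tsk-4 libraries were below all Col libraries. The ratio of Col to tsk-4 per read of the library was 6.15, with a 95% exact counting interval of 2.57 to 17.9 that covers counting error only. AHG1 was called lower on recovered reads (log2 change -2.49 ± 0.64, limma-voom adjusted p = 0.013), where 9.03% of all genes were called lower, and by limma with no filter (adjusted p = 0.011), where 3.39% were. Seed markers did not separate the genotypes: their sums were 130, 83.8 and 46.6 TPM in the Col libraries and 108, 49.6 and 105 TPM in the mutant. DOG1 did not pass the filter either, at 24 wild-type and 21 mutant reads.

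HAI3 was not shown to differ. Its reads numbered 21, 9 and 6 in the Col libraries and 6, 6 and 5 in the mutant, and Col 1 at 2.06 TPM stood above the other libraries, which ran from 0.458 to 0.802 TPM. The limma-voom log2 change was -0.92 ± 0.58 (95% interval -2.16 to 0.32; adjusted p = 0.31). Its coefficient of variation in Col was 71.0%, and that of the other 8 genes ran from 2.0% to 22.6%. The lowest, for HAI2, comes from 9, 10 and 10 reads and shows no stability beyond counting error. Col 1 was also the library with the highest seed marker sum, and the part of seed RNA in this value was not tested.

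The summed level of the 9 genes went from 201 ± 6.53 to 398 ± 0.935 TPM (SD, n = 3 each), and its make-up moved toward ABI1. ABI1 made up 26.9%, 27.0% and 27.9% of the sum in Col and 44.1%, 44.6% and 42.5% in tsk-4. HAB1 went from 22.8 ± 1.18% to 14.3 ± 0.404% and HAB2 from 16.8 ± 0.757% to 11.4 ± 0.558%, although the TPM of both rose. PP2CA held 24.0 ± 1.80% and 21.3 ± 1.263%. HAI1 and HAI2 went from 1.93 ± 0.489% and 0.358 ± 0.0179% to 3.36 ± 0.171% and 1.15 ± 0.189%. Divided by exon length, ABI1 made up 26.6 ± 0.542% and 43.0 ± 1.09%. These shares describe the 9 genes together and carry no test. In tsk-4 the order of levels was ABI1, PP2CA, HAB1, HAB2, ABI2, HAI1, HAI2, HAI3 and AHG1, and neighbours in it did not overlap on TPM or per exon length.

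**Figure D4:**
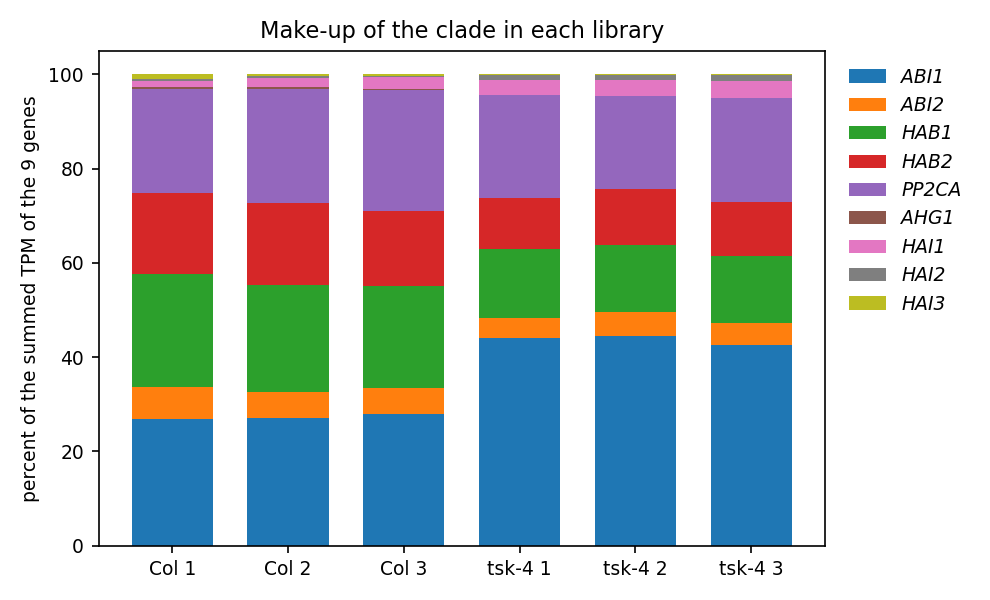
Share of each gene in the summed TPM of the 9 genes, in percent, 1 bar per library. The ABI1 share is 26.9% to 27.9% in Col and 42.5% to 44.6% in tsk-4.

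Genes with the most similar profile were found by the mean absolute difference, over the 6 libraries, of log2(TPM + 0.5) relative to each gene's own Col mean. For ABI1 they were AT3G46450, annotated as a SEC14 family protein (difference 0.04; from 24.6 ± 0.887 to 75.8 ± 3.85 TPM), and MLP43 (AT1G70890; 0.07; from 106 ± 4.36 to 348 ± 13.4 TPM). For HAI1 they were the non-coding RNA AT1G67105 (0.09) and COR413IM1 (AT1G29395; 0.10), a cold-regulated gene. For HAI2 they were AT4G25330 and ARCK1 (AT4G11890), at 0.05 and 0.07. AT4G25330 is listed at 0 TPM in Col and ARCK1 at 0.0246 TPM, against 0.721 TPM for HAI2, so their likeness to HAI2 is set by the pseudocount of 0.5. PP2CA was nearest to AT5G06110 and EXT10 (0.04 each), ABI2 to AT1G08040 and AT3G57030 (0.05 and 0.06), HAB1 to FIP1 and AT5G19900 (0.01 and 0.02) and HAB2 to AT2G29660 and SAG18 (0.02 and 0.03). FIP1 itself was not called (adjusted p = 0.29), and 21.2% of all genes tested had a larger rise than HAB1.

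The receptors act upstream of the phosphatases and inhibit them. Counts on TPM as deposited in this and the following lists stand against 14.9% called higher and 4.96% lower over all genes tested. Counts with median-ratio scaling stand against 9.21% and 8.21%, and those on recovered reads against 9.67% and 9.03%. Of 14 PYR/PYL genes 9 were tested, 0 rose and 1 fell: PYL4 (AT2G38310) went from 116 ± 19.9 to 54.25 ± 6.07 TPM (limma adjusted p = 0.00070). With median-ratio scaling 2 fell. The median log2 change of the tested receptors was -0.33. That of the 7 clade A genes that passed the filter, which leaves out AHG1 and HAI3, was 0.81. Of 10 genes of the SnRK2 family, only some of whose products the PP2Cs inactivate, 4 rose and 0 fell. These were SnRK2.2 (AT3G50500), 1 of the kinases most directly controlled by the clade, from 31.0 ± 0.301 to 39.8 ± 0.516 TPM, and SnRK2.1, SnRK2.8 and SnRK2.9 by 0.35, 0.39 and 0.87 on the log2 scale. With median-ratio scaling 2 of the 4, SnRK2.2 and SnRK2.9, were called. SnRK2.9 stood at 1.27, 0.968 and 0.948 TPM in Col and passed the filter only with its tsk-4 libraries. It rested on 66 wild-type and 149 mutant reads. SnRK2.3 and SnRK2.6 were not called, with log2 changes of -0.04 and 0.10 (limma adjusted p = 0.87 and 0.48).

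Among the transcription factors 5 of 10 tested rose and 0 fell. HB7 (AT2G46680) and HB12 (AT3G61890), homeodomain factors known to activate clade A PP2C genes, rose from 29.3 ± 2.51 to 90.2 ± 12.03 TPM and from 29.8 ± 3.54 to 58.6 ± 3.97 TPM. HB6 (AT2G22430), a homeodomain partner of ABI1, rose from 133 ± 8.0 to 223 ± 4.50 TPM, and ABF3 (AT4G34000), a factor that binds the ABRE and whose gene overlaps another, from 85.5 ± 1.76 to 142 ± 7.43 TPM (limma adjusted p = 7.9e-05). On recovered reads 5 rose and 1 fell. Of 11 tested genes of ABA synthesis and turnover 1 rose and 0 fell: BG1 (AT1G52400), a glucosidase that frees ABA from its conjugate, had a log2 change of 0.49 (adjusted p = 0.034) that was not called with median-ratio scaling (adjusted p = 0.072).

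ABA-responsive target genes moved in both directions, 4 of 15 rising and 2 falling with a median log2 change of -0.14. RD20 (AT2G33380), a caleosin of drought-stressed leaves, rose from 9.39 ± 1.12 to 33.8 ± 5.12 TPM and RD22 (AT5G25610) from 221 ± 20.02 to 355 ± 29.9 TPM, while COR15A and LTI30 had log2 changes of 3.02 and -0.72. Of 12 tested partners and regulators of the PP2Cs 2 rose and 0 fell. PUB13 (AT3G46510), a ubiquitin ligase that targets ABI1, rose from 43.2 ± 1.98 to 95.05 ± 0.468 TPM (limma adjusted p = 1.1e-05), and AKT2 by 0.26 on the log2 scale, a call that was lost with median-ratio scaling (adjusted p = 0.13), where 1 of the 12 rose and 1 fell. In all 6 lists together 16 of 67 tested genes (23.9%) rose and 3 (4.48%) fell, with a median log2 change of 0.11. Over all genes tested 14.9% rose and 4.96% fell, with a median of 0.08. Under median-ratio scaling 12 of the 67 rose and 5 fell, where 9.21% and 8.21% of all genes tested did.

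**Figure D5:**
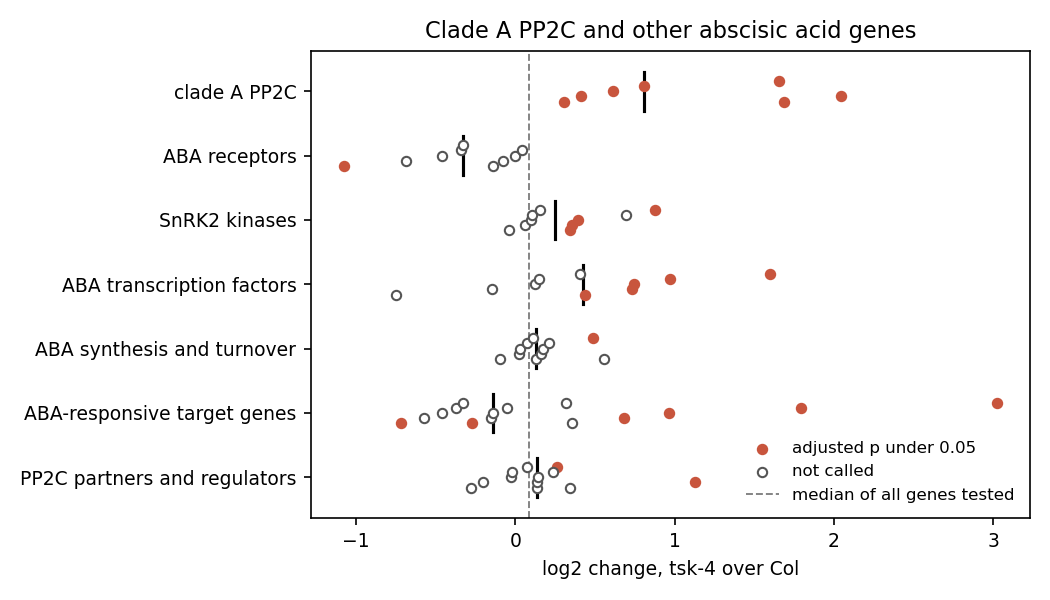
Log2 change, tsk-4 over Col, of each tested gene in the clade and in 6 lists of other ABA genes; filled points are calls at adjusted p under 0.05, open points are not called, black bars are list medians and the dashed line is the median of all genes tested. All 7 clade A points lie right of that line, while the tested receptors centre at -0.33. AHG1 and HAI3 did not pass the filter and are not shown.

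PP2C genes outside the 9, taken by annotation text whatever their pathway, were counted by the same rule. Of 67 such genes in the annotation, 55 were tested, 9 rose (16.4%) and 1 fell, with a median log2 change of 0.10. Over all genes tested 14.9% rose and 4.96% fell, with a median of 0.08, so the share that rose is near that of all genes. Those with the smallest adjusted p were AT1G18030, PIA1 (AT2G20630), a PP2C named for its induction by a bacterial effector, AT3G05640 and AT1G78200, with rises of 0.77, 0.51, 1.015 and 0.61 on the log2 scale. AT1G18030, PIA1 and AT3G05640 overlap annotated neighbours. Under median-ratio scaling the count was 4 higher and 1 lower, where 9.21% and 8.21% of all genes tested were called. With that scaling 6 of the 7 tested clade A genes rose. The difference between the groups of genes was not tested.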

How the data were processed

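Libraries of total RNA, 3 per genotype, were compared. The authors deposited TPM per gene, 1 column per library, each scaled to the same total. Per the submitters' processing notes the genome was TAIR10 and the tools included HTSeq 0.11.2, fastp 0.20.1, DESeq2 1.26.0 and HISAT2. What each did, and whether counting used strand or multi-mapping reads, is not given in the sources used here. Separately normalized tables of transposable elements were not used here. Of 33189 rows 33056 matched the TAIR10.1 annotation by identifier. TPM times gene span, divided by 1 constant per library, gave whole reads within 0.02 reads for 100% of values above 0, and 1 read in 1 kb was worth 0.149 to 0.164 TPM. Promoter windows and coordinates, 1-based, come from that annotation.

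Expression was compared on log2(TPM + 0.5) by limma (3.58.1, trended variance; R 4.3.3), keeping genes that reached 1 TPM in 3 or more of the 6 libraries, adjusted by Benjamini-Hochberg over all genes tested and called under 0.05. Such log2 changes understate those of low genes. Alternatives were other pseudocounts, no filter, median-ratio and quantile scaling, limma-voom on recovered reads (at least 10 over the 6 libraries), the replicate block and leaving out each library. Fits were tested on simulated data. Genes named are the 9 members, TSK, up to 4 called genes per list with the smallest adjusted p (2 of the most abundant where none was called) and the 2 genes most similar to each called member. MEK1, DOG1, SnRK2.3 and SnRK2.6 were named after their values were seen. Members and lists were chosen with earlier results of these data known. The lists share SLAC1, KAT1, EM1 and EM6 with marker lists. The remaining computations ran in Python 3.11.15 (SciPy 1.17.1, pandas 2.3.3, matplotlib 3.10.9, NumPy 2.4.6).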

Additional observations from a re-analysis of the deposited data

How the results depend on the processing

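Of the 7 clade A genes that rose, ABI1, ABI2, HAB2, PP2CA, HAI1 and HAI2 kept their direction and their call in every alternative that could test them, while HAB1 kept its direction and lost its call in those named above. HAI2 fell under the filter when a tsk-4 library was left out and was called on the genes of the full test, versions added after the data were seen. The number called higher ranged from 5 to 7 without each library. With no filter or on recovered reads 1 clade A gene, AHG1, was lower (0 in the test on TPM). The median log2 change of all genes moved from 0.08 to 0.00 with median-ratio scaling, so the TPM changes lie about that much higher. Other ABA genes called lower numbered 3, 5 under either other scaling of TPM, 6 on reads, and 2 to 6 without each library, 6 without Col 3. Over all genes limma called 2912 higher and 971 lower, against 1802 and 1607 under median-ratio scaling. Quantile normalization gave 1704 and 1660, and the recovered reads 2093 and 1954. Without each library the counts were 1783 to 3376 higher and 501 to 1162 lower. They moved over 1.5 times without Col 1 (558 lower), Col 2 (1802 higher, 501 lower), tsk-4 1 (1927 higher), tsk-4 2 (626 lower) and tsk-4 3 (1783 higher, 578 lower). On the genes of the full test the higher calls were 1798 to 3364 (1822 without tsk-4 3) and the lower calls 507 to 1170 (562 without Col 1, 629 without tsk-4 2 and 575 without tsk-4 3). The cause of these shifts was not tested. The replicate numbers of the titles were not shown to pair the libraries. Same-numbered libraries correlated in their deviations by 0.12, -0.09 and -0.11, and the largest value was 0.25, between Col 3 and tsk-4 2. Deviations from a genotype mean cancel within the genotype, so these values cannot decide whether libraries were paired. With the replicate block 7 clade A genes were called higher and 0 lower, and over all genes 2310 and 750. AHG1 and HAI3 are limited by depth, with 42 and 53 reads in all.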
